A study of Homo sapiens with 12 samples.

Results

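The genes described are 9 genes of MHC class I antigen presentation, whose transcripts were measured in Colo320DM cells, an established line from a human colorectal tumour. They are HLA-B, HLA-C, HLA-E, HLA-F, B2M, TAP1, TAP2, PSMB9 and NLRC5, and every array probe annotated with one of these symbols was taken. This gave 9 of the 34423 gene names on the array, read by 15 of its 50599 distinct probes. For each gene the brightest probe, by its mean over all 12 arrays, is given as the main value, and the other probes are given beside it.

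The study asked how loss of TET1, which oxidises methylated cytosine in DNA, relates to aberrant DNA methylation and alters gene expression. It combined this loss with 5-aza-2’-deoxycytidine (5-aza-dC), a cytosine analogue that depletes DNA methyltransferases. The study also measured TET1 in the clones by RT-qPCR and DNA methylation on other arrays, and these data were not used here. Control clones stably carried pcDNA6.2-GW/EmGFP-miR-neg, a plasmid for a control microRNA, and knockdown clones one of a pair of plasmids with an artificial microRNA against TET1, clones 1 and 2 the same one and clone 3 the other. There were 3 clones of each type, all picked as colonies resistant to G418 and positive for green fluorescent protein, and no uncloned or untransfected cells were included. One array per clone was run on mock-treated cells and another on cells given 1 µM 5-aza-dC for 72 h, which gave 4 groups of 3 arrays. The precision of every difference was limited by these 3 clones per group, and the p-values measure the spread between clones.

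Class I molecules display peptides from the inside of the cell to cytotoxic T cells. Each consists of a heavy chain, such as those of HLA-B, HLA-C, HLA-E and HLA-F, and the light chain beta-2-microglobulin, the product of B2M. Peptides are made by the proteasome, in which PSMB9 is an interferon-inducible catalytic subunit, and are pumped into the endoplasmic reticulum by the transporter of TAP1 and TAP2. NLRC5 is a transactivator that acts on class I promoters through factors bound at the X and Y boxes, and interferon gamma induces most of these genes. Low class I expression is well known in colorectal cancers, and several of these promoters lie in CpG-rich sequence.

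The probes of HLA-B and HLA-C carried most of the changes described below. A stretch of 30 bases of each is shown because it bears on which gene a signal can be assigned to. Capitals mark the base at which the first 3 stretches differ, counted from the 5′ end of the stretch.
A_33_P3424800 (HLA-B, the brightest): caattcctggaaGttgagagagcaaataaa
A_33_P3379947 (HLA-B): caattcctggaaTttgagagagcaaataaa
A_33_P3424803 (annotated as HLA-C): caattcctggaaGttgagagagcaaataaa
A_33_P3330109 (HLA-C, the brightest): gagctgcaacttcttacttccctaatgaag

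Relative to the brightest HLA-B probe, the second carried G13T in this stretch. A_33_P3424800 and A_33_P3424803 overlapped by 41 bases with 0 mismatches. On hg19, the build of the probe positions, the brightest HLA-B probe lay at chr6:31321663-31321722 and A_33_P3424803 at chr6:31321644-31321703, both on the minus strand, so the probe annotated as HLA-C lay at the HLA-B position and its signal cannot be told apart from HLA-B. The brightest HLA-C probe lay at chr6:31236617-31236676 and shared no run of 15 or more bases with any other probe of the 9 genes. HLA genes are polymorphic, and the alleles of this line were not compared with the probes. The probes were compared with each other and not with transcripts. Whether the probes at the HLA-B position also read HLA-C transcripts was therefore not tested, and the values given for HLA-B are those of probes annotated as HLA-B.

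Upstream sequences are shown for HLA-B and HLA-C, whose signals moved together, and for HLA-F and B2M, which moved less. They are the 250 bases before the annotated transcription start in RefSeq (GRCh38.p14), written in the direction of the gene. Capitals mark matches on either strand to TGACG (the core of the X2 box) and CCAAT (the core of the Y box). They also mark GAANNGAAA (a motif like the interferon-stimulated response element) and GGGANTCCC (an NF-kB-like motif). Other forms of the response element were not searched for, so a sequence without GAANNGAAA, as in HLA-F and B2M, may still hold the element. None of the matches overlapped another.
HLA-B, chr6:31357180-31357429, minus strand: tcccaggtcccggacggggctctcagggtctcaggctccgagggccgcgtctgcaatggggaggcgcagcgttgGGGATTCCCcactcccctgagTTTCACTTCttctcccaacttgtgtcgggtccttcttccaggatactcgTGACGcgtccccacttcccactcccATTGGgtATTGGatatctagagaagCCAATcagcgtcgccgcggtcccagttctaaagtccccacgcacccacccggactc
HLA-C, chr6:31272093-31272342, minus strand: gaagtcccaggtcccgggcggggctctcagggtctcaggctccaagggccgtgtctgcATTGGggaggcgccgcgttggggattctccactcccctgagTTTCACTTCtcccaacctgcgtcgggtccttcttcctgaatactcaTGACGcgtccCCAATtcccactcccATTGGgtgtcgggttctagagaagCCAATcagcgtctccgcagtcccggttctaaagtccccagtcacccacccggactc
HLA-F, chr6:29723184-29723433, plus strand: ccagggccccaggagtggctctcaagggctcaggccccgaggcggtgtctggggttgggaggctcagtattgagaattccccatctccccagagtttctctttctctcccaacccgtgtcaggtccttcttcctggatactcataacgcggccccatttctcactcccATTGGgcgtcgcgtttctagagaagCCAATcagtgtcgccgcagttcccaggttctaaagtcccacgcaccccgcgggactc
B2M, chr15:44711267-44711516, plus strand: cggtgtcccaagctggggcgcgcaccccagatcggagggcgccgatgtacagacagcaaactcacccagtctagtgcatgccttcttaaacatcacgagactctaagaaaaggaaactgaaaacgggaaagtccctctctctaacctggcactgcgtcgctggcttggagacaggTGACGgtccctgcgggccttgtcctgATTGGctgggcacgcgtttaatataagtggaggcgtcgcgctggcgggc

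The HLA-B and HLA-C sequences were identical in 89.0% of aligned positions, and each was identical to the HLA-F sequence in 80.4% and 78.7%. The 18 other pairs among the 7 genes with a promoter in the table ranged from 47.3% to 51.9%. In the full windows of 300 bases, which end 50 bases after the start, TGACG was found in 5 of these 7 genes and in 24.6% of 35116 RefSeq promoters, CCAAT in 6 and 34.6%, GAANNGAAA in 3 and 7.66%, and GGGANTCCC in 1 and 0.877%. HLA-B held 22 CpG sites in its window, HLA-C 19, HLA-F 17 and B2M 22, against a median of 14 over all promoters. These counts lay not far above the middle, since 62.3%, 57.1%, 54.0% and 62.3% of promoters held fewer. The GAANNGAAA counts are those of this form only, so whether the genes differ in the response element was not tested. All these matches describe the reference sequence only, since methylation was not measured on these arrays.

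Signals are the log2 processed signal of the scanner files centred on the 75th percentile over all probes of the array, so that a value of 0 is the level of that percentile and a difference of 1 is a doubling. On each array 45.74% to 52.88% of probes exceeded background clearly (well above background, as the scanner software calls it), and 0 spots were saturated. The arrays lay on 2 slides. Slide 2 held mock control clone 3, treated knockdown clone 2 and all treated control clones, slide 1 held the other 7 arrays, and the first principal component (43.2% of the variance) separated the slides. TET1 itself lay 0.93 lower in mock knockdown clones (SE 0.19), which did not pass the test (limma with Benjamini-Hochberg adjustment, adjusted p = 0.276). In treated clones the TET1 difference was -0.67 (SE 0.36, adjusted p = 0.335, limma), and the highest treated knockdown value of 4.31 exceeded the lowest treated control value of 4.06. The epithelial markers KRT8 and KRT18 and the intestinal factor CDX2 were well above background on all 12 arrays, whereas CDH1 was so on none. Of the other epithelial markers, EPCAM was so on 10 arrays and KRT19 on 6. Of the other colon markers, CDH17 was so on 11, GPA33 on 10 and VIL1 on 1.

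All 9 genes were well above background on all 12 arrays at their brightest probe, and 14 of the 15 probes were tested in each comparison. The exception was A_23_P368067, a probe for the TAP2 transcript NM_018833, which was well above background on no array.

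**Figure D1:**
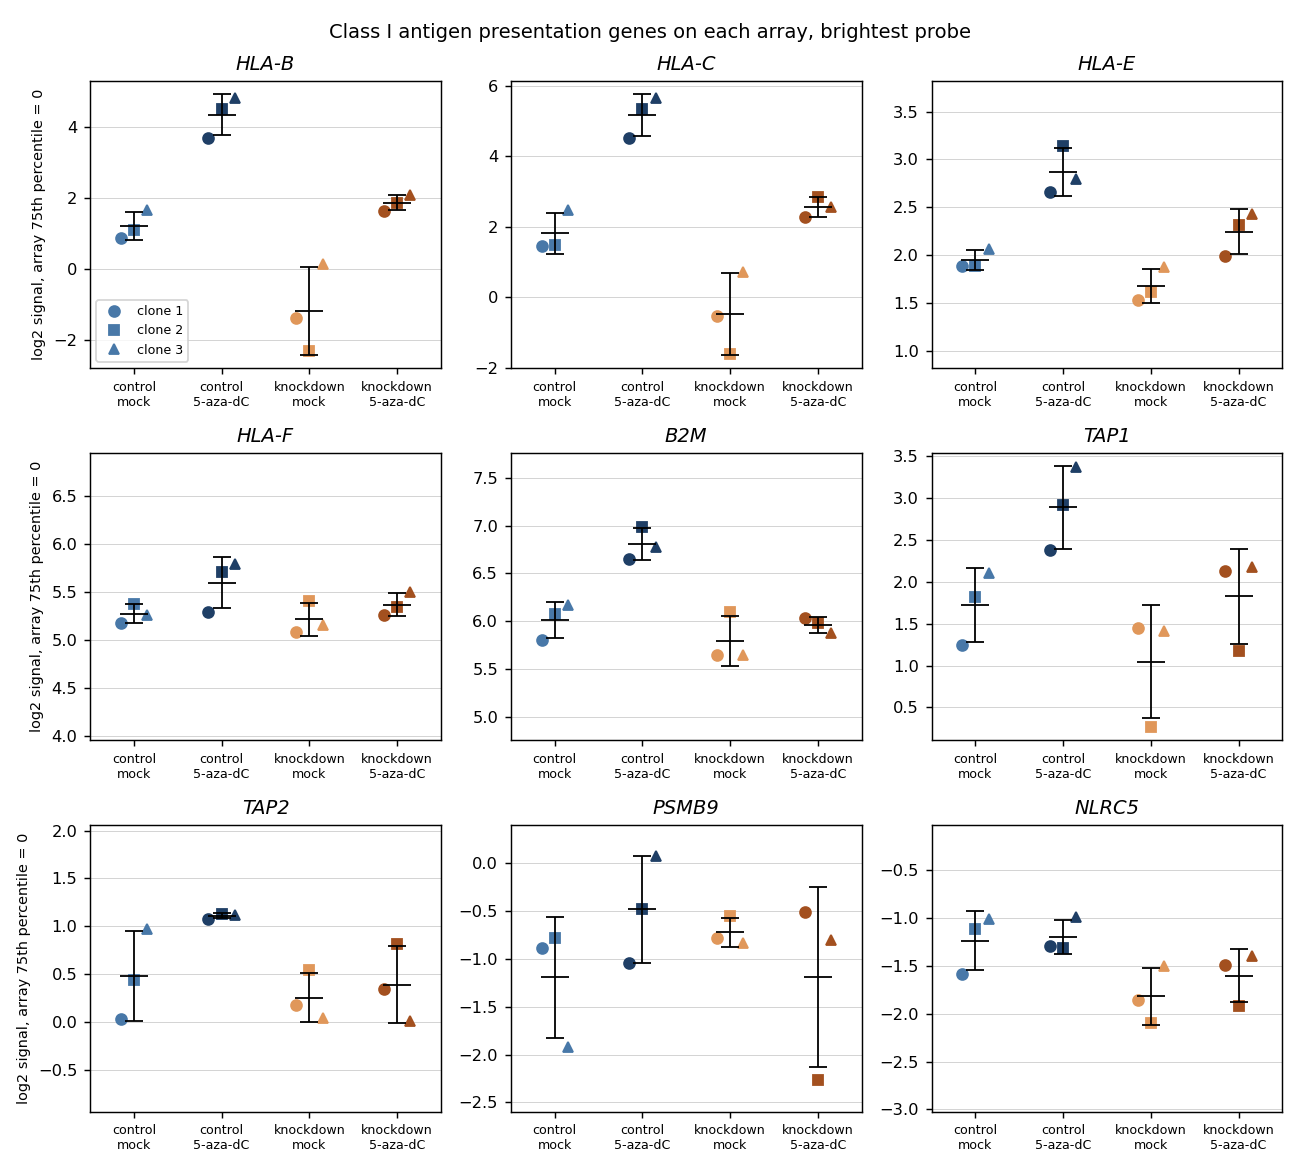
Log2 signal of the 9 genes at their brightest probe, relative to the 75th percentile of each array, in the 4 groups. Symbols are single clones, and the black bars give the mean and SD of 3 clones. HLA-B and HLA-C span the widest range, with the mock knockdown clones lowest and the treated control clones highest, whereas HLA-F lies between 5.08 and 5.79 on all arrays.

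The first comparison asked whether the 9 genes differed between knockdown and control clones without drug. HLA-B and HLA-C, the classical heavy chains, were each lower in all 3 knockdown clones than in any control clone, but neither passed the test over all probes. The mock signal of HLA-B was 0.87, 1.11 and 1.66 in control clones 1 to 3, and -1.38, -2.31 and 0.14 in knockdown clones 1 to 3. Knockdown clone 3 was closest to the control clones. The groups did not overlap, and their means were 1.22 ± 0.41 and -1.19 ± 1.24 (SD, n = 3). The fitted difference was -2.40 (SE 0.61, 95% interval -3.87 to -0.93), 5.28-fold lower in knockdown clones, with an adjusted p of 0.350 (limma). The second HLA-B probe gave -2.20, and the dim probe A_33_P3399208, which has no mapped position, gave -0.58.

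HLA-C was 1.46, 1.49 and 2.47 in mock control clones and -0.52, -1.62 and 0.71 in mock knockdown clones. Its order of clones was that of HLA-B in both groups, and the groups did not overlap. The difference was -2.29 (SE 0.61), 4.88-fold lower, with an adjusted p of 0.361 (limma). In bulk RNA of a clone, fewer cells with a transcript and less transcript per cell cannot be told apart.

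HLA-E, a nonclassical heavy chain that engages natural killer cell receptors, was 1.89, 1.89 and 2.07 in mock control clones and 1.53, 1.61 and 1.87 in mock knockdown clones. These groups did not overlap either, by a small margin, and the difference of -0.27 (95% interval -0.72 to 0.17) did not pass the test. The other 6 genes overlapped between the clone types. Their differences ranged from -0.68 for TAP1 to 0.47 for PSMB9, with HLA-F at -0.06 and B2M at -0.22. The dimmer HLA-F probe, A_33_P3379967, gave -1.92 (SE 0.87), and it was well above background in 1 of 3 mock knockdown clones.

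Of the 9 genes, 0 were called lower at an adjusted p under 0.05, beside 0.105% of all 24752 probes tested, and 2 had an unadjusted p under 0.05 by limma (11.2% of all probes) and 2 by the methods' t-test, which called 0 after adjustment. The groups did not overlap, with knockdown lower, in 3 of 9 genes and in 9.09% of all probes. The median difference of the 9 genes was -0.27, against 0.04 over all probes. Within slide 1, which held mock control clones 1 and 2 and all knockdown clones, HLA-B differed by -2.18 and HLA-C by -1.96.

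The second comparison asked the same after 72 h with 5-aza-dC. All 9 genes had a lower mean in the knockdown clones, with differences from -2.61 for HLA-C to -0.23 for HLA-F, and 0 passed the test on the 6 treated arrays. HLA-B was 3.70, 4.52 and 4.83 in treated control clones and 1.65, 1.87 and 2.07 in treated knockdown clones. The treated knockdown clones lay close together and below every treated control clone. The difference was -2.49 (SE 0.33, 95% interval -3.27 to -1.71), 5.60-fold lower, with an adjusted p of 0.0790 (limma).

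HLA-C was 4.50, 5.34 and 5.65 in treated control clones and 2.27, 2.85 and 2.55 in treated knockdown clones. The difference was -2.61 (SE 0.34), 6.09-fold lower, with an adjusted p of 0.0790 (limma). The probe annotated as HLA-C at the HLA-B position gave -2.13, and the other HLA-B probes gave -1.75 and -0.83. Both values were close to those without drug. For both genes the treated knockdown clones lay near or above the highest mock control value, which was 1.66 for HLA-B and 2.47 for HLA-C.

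B2M, the shared light chain, was 6.65, 6.98 and 6.78 in treated control clones and 6.03, 5.98 and 5.87 in treated knockdown clones. The groups were clearly apart, with a difference of -0.84 (SE 0.19, 95% interval -1.30 to -0.38) and an adjusted p of 0.160 (limma). TAP1 was 2.38, 2.92 and 3.37 in treated control clones and 2.13, 1.17 and 2.18 in treated knockdown clones, a difference of -1.06 (SE 0.38). TAP2, its partner in the transporter, was 1.08, 1.13 and 1.12 in treated control clones and 0.34, 0.81 and 0.01 in treated knockdown clones, a difference of -0.72 (SE 0.25). In neither transporter gene did the groups overlap, and the lowest TAP1 value was that of knockdown clone 2, whereas the lowest TAP2 value was that of knockdown clone 3.

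Beside 0 of 9 genes called lower, 0.072% of all 24997 probes were called lower in treated knockdown clones. At an unadjusted p under 0.05 there were 6 of the 9 by limma, beside 19.3% of all probes, and 5 by the methods' t-test, which called 0 after adjustment. The groups did not overlap, with knockdown lower, in 7 of 9 genes, the exceptions being HLA-F and PSMB9, and in 13.2% of all probes. The median difference was -0.72, against -0.01 over all probes. Treated knockdown clone 2 was the only treated knockdown array on slide 2, and without it 4 genes were called lower, namely HLA-B (-2.49, adjusted p = 0.00880), HLA-C (-2.75, adjusted p = 0.00697), B2M (-0.85, adjusted p = 0.0196) and TAP2 (-0.93, adjusted p = 0.0149, limma). All treated knockdown arrays then lay on slide 1 and all treated control arrays on slide 2, so that clone type and slide cannot be told apart in these calls. Within slide 2, the 1 treated knockdown array differed from the treated control clones by -2.48 for HLA-B, -2.31 for HLA-C, -0.82 for B2M and -0.30 for TAP2.

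**Figure D2:**
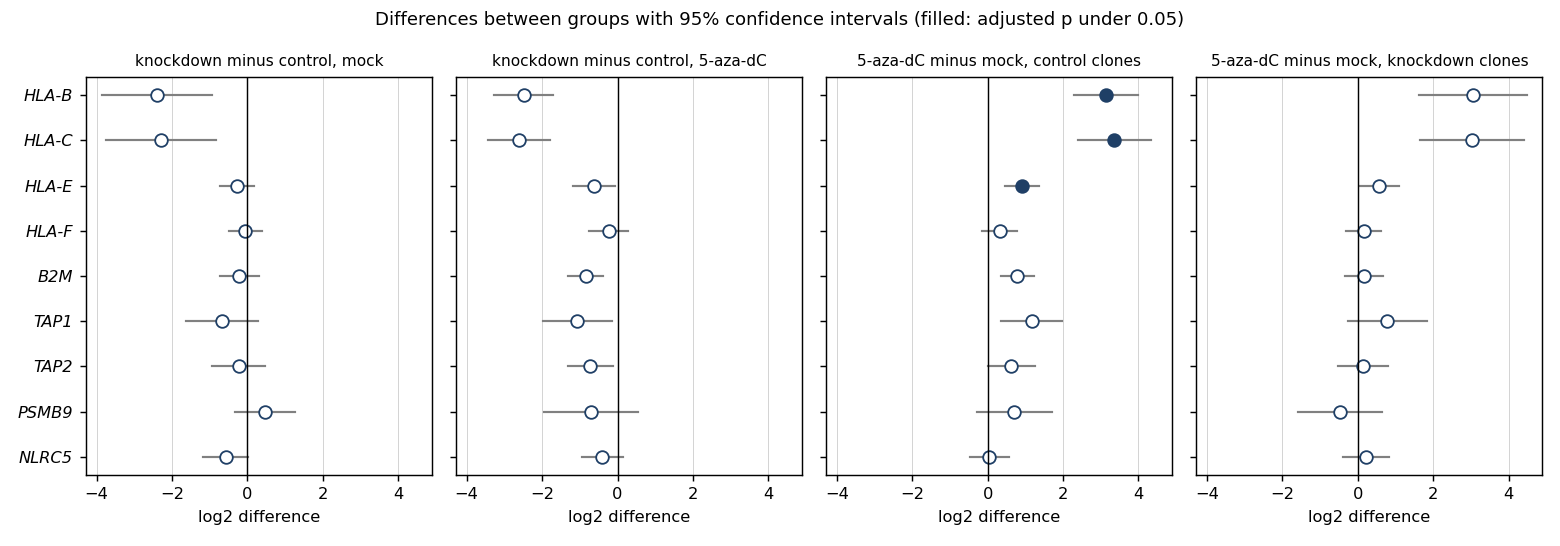
Differences in log2 signal between groups for the 9 genes at their brightest probe, with 95% confidence intervals from limma on 3 against 3 arrays. Filled points have an adjusted p under 0.05 over all probes tested, which holds for HLA-B, HLA-C and HLA-E after 5-aza-dC in control clones. The intervals of HLA-B and HLA-C exclude 0 in all 4 panels.

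The third comparison asked what 5-aza-dC did in control clones. HLA-B, HLA-C and HLA-E rose, each in 3 of 3 clones, by 3.13, 3.36 and 0.92 on the log2 scale. From mock to drug, HLA-B went from 0.87 to 3.70 in clone 1, from 1.11 to 4.52 in clone 2 and from 1.66 to 4.83 in clone 3. Every treated clone exceeded every mock clone, and the rise was 8.78-fold (SE 0.35 on the log2 scale, adjusted p = 0.00639, limma). The other HLA-B probes gave 2.59 (adjusted p = 0.00766) and 2.08 (adjusted p = 0.0279, limma), so all 3 were called in this fit without a block.

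HLA-C rose in signal from 1.46 to 4.50, from 1.49 to 5.34 and from 2.47 to 5.65 in clones 1 to 3, which was 10.2-fold (SE 0.40, adjusted p = 0.00776, limma). The probe that is annotated as HLA-C but lies at HLA-B gave 2.89. HLA-E went from 1.89 to 2.66, from 1.89 to 3.14 and from 2.07 to 2.79, a rise of 1.89-fold (SE 0.19, adjusted p = 0.0460, limma). The HLA-E call was lost in 12 of 19 alternatives, 5 of which left out a single array, with adjusted p-values of up to 0.359. HLA-F, whose product lies mostly inside the cell, showed 0.32 (95% interval -0.14 to 0.79) at its brightest probe and 0.56 at the other.

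B2M differed by 0.79 (SE 0.18, adjusted p = 0.0635) and TAP1 by 1.17 (SE 0.33, adjusted p = 0.0992, limma). In both genes all 3 clones had a higher signal with drug, and the groups did not overlap. TAP2 differed by 0.63 (adjusted p = 0.185) and PSMB9 by 0.71 (adjusted p = 0.303). The PSMB9 value rested on clone 3, which went from -1.92 to 0.07, while clones 1 and 2 differed by -0.16 and 0.30, and it was 1.43 (adjusted p = 0.193, limma) with the slide as a block. NLRC5, the transactivator, was -1.59, -1.12 and -1.01 without and -1.29, -1.31 and -0.99 with drug, and the difference of 0.04 had a 95% interval of -0.48 to 0.56. Its other probe gave 0.27 (95% interval -1.16 to 1.69).

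Thus 3 of 9 genes were called higher, beside 3.85% of all 24641 probes tested, and 6 had an unadjusted p under 0.05 by limma, beside 26.5% of all probes. All 9 differences were above 0, although that of NLRC5 lay below 0 with the array median, quantile or normexp scaling. The median was 0.79, against -0.02 over all probes. The calls depended on single arrays and on the slide. Without treated clone 2 or treated clone 3, 0 genes were called, and without mock clone 3, the only mock control array on slide 2, 6 were called. In the latter case drug and slide cannot be told apart, since all mock control arrays left were on slide 1, and TAP2, one of the genes gained, differed by 0.14 (adjusted p = 0.776, limma) with the slide as a block of the full set. With the slide as a block 0 were called, with 2.69 for HLA-B (adjusted p = 0.0641), 2.70 for HLA-C (adjusted p = 0.0641) and 0.80 for HLA-E (adjusted p = 0.184, limma). These are also the differences within slide 2, between 3 treated arrays and 1 mock array. With the clone as a block, HLA-E had an adjusted p of 0.0722 and TAP1 was called (adjusted p = 0.0311, limma).

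The fourth comparison asked what the drug did in knockdown clones. HLA-B and HLA-C again had a higher signal in 3 of 3 clones, by 3.05 and 3.03 on average, but 0 of 9 genes passed the test, beside 2.03% of 25389 probes called higher. HLA-B went from -1.38 to 1.65, from -2.31 to 1.87 and from 0.14 to 2.07 in clones 1 to 3. The clone with the lowest mock signal had the largest difference, and the treated clones lay within a narrower range than the mock clones. The adjusted p was 0.0753 for HLA-B and 0.0642 for HLA-C on these 6 arrays, and 0.00935 and 0.0101 when all 12 arrays were fitted together (limma). HLA-C went from -0.52 to 2.27, from -1.62 to 2.85 and from 0.71 to 2.55. The other HLA-B probes gave 3.04 and 1.82.

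HLA-E differed by 0.57 (SE 0.22, adjusted p = 0.497) and was also higher in 3 of 3 knockdown clones. TAP1 was higher in 3 of 3 clones, by 0.68, 0.90 and 0.76, with an SE of 0.44, and the mock clones were themselves spread from 0.27 to 1.45. B2M differed by 0.17 (95% interval -0.34 to 0.68), with knockdown clone 2 at -0.11, and its direction turned with the array median as the scale (-0.10). PSMB9 differed by -0.47 (SE 0.47), which came from clone 2 (-1.72), as clones 1 and 3 differed by 0.27 and 0.03. Unadjusted p-values under 0.05 were found for 3 genes by limma, beside 9.15% of all probes, and for 3 by the methods' t-test, which called 0 after adjustment. The median difference was 0.22, against -0.09 over all probes. Without mock knockdown clone 3, HLA-B (3.71, adjusted p = 0.00912) and HLA-C (3.63, adjusted p = 0.0152, limma) were called. Within slide 1, between 2 treated and 3 mock arrays, the differences were 3.05 and 2.89.

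**Figure D3:**
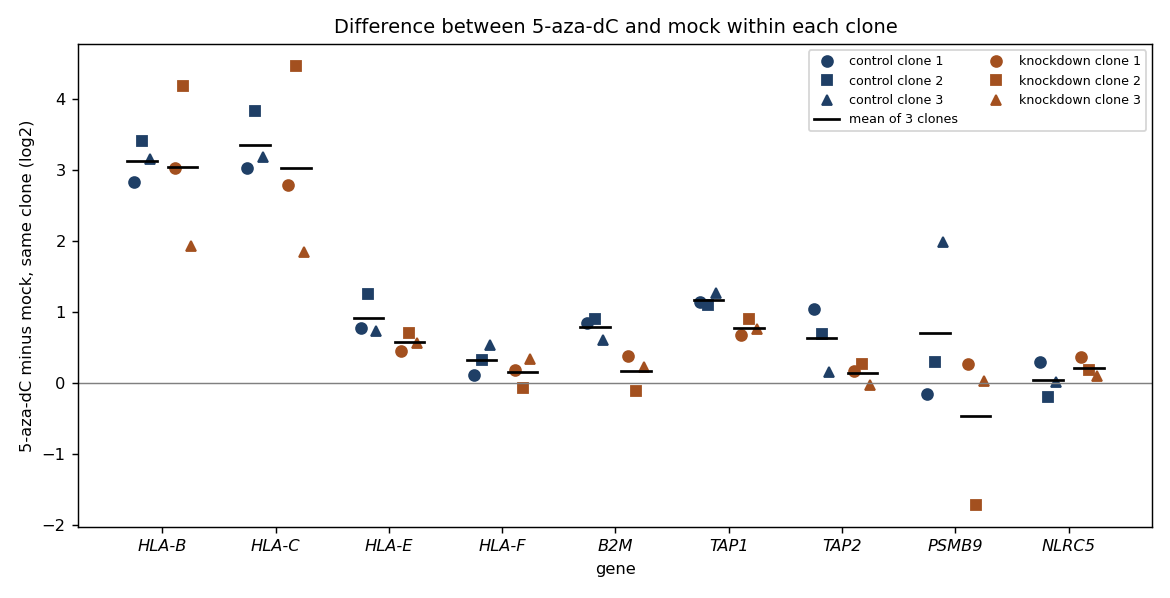
Difference in log2 signal between the 5-aza-dC and the mock array of the same clone for the 9 genes at their brightest probe. Symbols are single clones and black bars the mean of 3 clones. HLA-B and HLA-C lie between 1.84 and 4.47 in all 6 clones, and B2M lies between 0.61 and 0.91 in control clones and between -0.11 and 0.38 in knockdown clones. HLA-E and TAP1 also lie higher in every control clone than in any knockdown clone.

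Over all 6 clones on 12 arrays, 4 of 9 genes rose with 5-aza-dC, beside 7.29% of 27287 probes called higher. HLA-B rose 8.53-fold (3.09, SE 0.38, adjusted p = 0.000425), HLA-C 9.16-fold (3.20, SE 0.38, adjusted p = 0.000362), HLA-E 1.68-fold (0.75, SE 0.14, adjusted p = 0.00622) and B2M 1.39-fold (0.48, SE 0.13, adjusted p = 0.0396, limma). HLA-B, HLA-C and HLA-E were higher in 6 of 6 clones and B2M in 5 of 6. With the slide as a block HLA-B (2.92, adjusted p = 0.00675), HLA-C (2.84, adjusted p = 0.00589) and HLA-E (0.68, adjusted p = 0.0287) were still called, and B2M was not (0.41, adjusted p = 0.116, limma). With the clone and the slide together, HLA-E was not called (0.63, adjusted p = 0.0650, limma). The B2M call was lost without single arrays in 10 of 12 cases, with the array median as the scale (0.24, adjusted p = 0.235), without the filter on dim probes (adjusted p = 0.0994) and with quantile normalization (0.40, adjusted p = 0.0614, limma). TAP1 was higher in 6 of 6 clones, by 0.97 (SE 0.29), with an adjusted p of 0.0539 without and 0.00229 with the clone as a block (limma). The remaining 4 genes ranged from 0.12 for PSMB9 to 0.38 for TAP2. The PSMB9 value depended on the slide, being 0.79 (adjusted p = 0.0653) with the slide as a block and 1.07 (adjusted p = 0.0212, limma) with the clone and the slide together, where it was called.

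The last comparison tested whether the drug's effect differed between clone types, since the study followed the response of TET1-depleted cells to 5-aza-dC. Here 0 of 9 genes were called, beside 0.0366% of all probes in either direction, and every adjusted p among them was 0.9995 by limma. HLA-B gave an interaction of -0.09 (knockdown minus control response, 95% interval -1.76 to 1.59) and HLA-C one of -0.32 (95% interval -2.01 to 1.37). The direction was not shared by all probes, as A_33_P3379947 at HLA-B gave 0.45, A_33_P3424803 gave 0.14 and the dimmer HLA-F probe gave 1.10 against -0.17 at the brightest. For HLA-B and HLA-C the intervals reached beyond 2-fold in both directions. Without a block B2M had the smallest p-value of the 9, at -0.62 (95% interval -1.21 to -0.04, unadjusted p = 0.0394), with responses of 0.85, 0.91 and 0.61 in control clones and 0.38, -0.11 and 0.23 in knockdown clones. The B2M responses did not overlap between the clone types, but the test over all probes was not passed. Those of HLA-E (0.78, 1.26 and 0.73 in control, 0.45, 0.70 and 0.56 in knockdown clones) did not overlap either. Nor did those of TAP1 (1.14, 1.09 and 1.27 in control, 0.68, 0.90 and 0.76 in knockdown clones). How often responses did not overlap over all probes was not counted. With the slide as a block PSMB9 had the smallest p-value, at -1.63 (unadjusted p = 0.00198, adjusted p = 0.531), and with the clone and the slide together it gave -1.81 (adjusted p = 0.258, limma), so it was called in neither.

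These comparisons share arrays, since each control group enters both a comparison of clone types and the drug comparison in control clones. For HLA-B the values side by side were -2.40 and -2.49 between clone types and 3.13 and 3.05 with drug, and for B2M they were -0.22 and -0.84 between clone types and 0.79 and 0.17 with drug.

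Across the 12 arrays the 9 genes did not all vary together. As a description, the correlation (Pearson's r over 12 arrays that share clones, groups and slides) with the mean profile of the 9 genes was 0.98 for HLA-B and HLA-C, 0.94 for HLA-E, 0.93 for TAP1 and 0.86 for B2M. It was 0.74 for HLA-F, 0.72 for NLRC5, 0.69 for TAP2 and 0.25 for PSMB9. Each gene is itself part of this profile, and HLA-B and HLA-C, with the widest range, weigh most in it. Their r is therefore high in part by construction. HLA-B and HLA-C had an r of 0.997 with each other, and PSMB9 and TAP2 one of -0.096. The 5 genes outside the list that were most like this profile, of 14954 candidates well above background on all arrays, were the unnamed transcript XLOC_l2_012953 (0.97), RP2 (0.953), KDELR3 (0.945), FKBP1B (0.943) and MARVELD2 (0.931). FKBP1B, a peptidyl-prolyl isomerase that binds calcium release channels, had mean signals of -0.04 in mock control, 2.52 in treated control, -1.78 in mock knockdown and 0.97 in treated knockdown clones. MARVELD2, a protein of tight junctions, had means of -1.75, 0.80, -3.20 and -0.75 in the same order.

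Genes of the same pathway were taken from lists by role. Of the other class I heavy chain genes and pseudogenes, 4 were on the array, and over all clones 1 was called higher with 5-aza-dC. This was the pseudogene HLA-J (0.79, SE 0.19, adjusted p = 0.0235, limma). Class I genes are close in sequence, and binding of a probe to transcripts of a related gene was not tested.

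Of the 7 genes for peptide loading and trimming (TAPBP, TAPBPL, CALR, CANX, PDIA3, ERAP1 and ERAP2), 0 were called in any of the 6 comparisons. Over all clones the largest differences with drug were 0.37 for the chaperone CANX and -0.40 for the disulphide isomerase PDIA3, and the median of the list was 0.04. Between treated clone types, 6 of the 7 were lower in knockdown clones, with a median of -0.60. The lowest were TAPBPL, a peptide editor (-2.28, SE 0.50, adjusted p = 0.154), and ERAP2, an aminopeptidase that trims peptides (-1.19, SE 0.34, adjusted p = 0.194, limma).

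In the immunoproteasome and PA28 list, 1 of 4 genes was called, and it was PSMB8, the catalytic subunit encoded next to TAP1 in the class II region. PSMB8 was not well above background on any mock array and was so on all 6 treated arrays, at -1.04, -0.81 and 0.27 in control clones and -2.73, -2.44 and -2.96 in knockdown clones. Treated control clones were thus at least 11.9-fold above mock (adjusted p = 0.0164, limma), and treated knockdown clones at least 2.34-fold (adjusted p = 0.05003, just above the threshold). PSMB10, PSME1 and PSME2 ranged from -0.0048 to 0.39 over all clones. The 4 constitutive counterparts had a median of -0.44 over all clones, with PSMB6 at -0.75 (adjusted p = 0.0620) and PSMB5 at -0.61 (adjusted p = 0.0725, limma), and 0 were called.

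Of 11 factors that bind class I promoters, 2 were called lower over all clones, beside 5.95% of all probes called lower. They were NFYA, a subunit of the Y box factor (-0.62, SE 0.13, adjusted p = 0.0143), and CREB1, which can bind the X2 box (-0.52, SE 0.14, adjusted p = 0.0366, limma). IRF1, which binds the interferon-stimulated response element, gave -0.06, and RFX5, of the X box complex, 0.14. In the interferon gamma pathway 1 of 6 genes was called over all clones, SOCS1, a feedback inhibitor (1.05, SE 0.22, adjusted p = 0.0132, limma). The receptor chains IFNGR1 and IFNGR2 gave -0.34 and -0.46.

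In the interferon response list, 3 of 14 genes tested were called higher and 1 lower with 5-aza-dC in control clones, beside 3.85% of all probes called higher and 1.37% called lower. IRF7, a transcription factor of the interferon response, was well above background on no mock array and was at least 5.61-fold higher in treated control clones (adjusted p = 0.0155) and at least 7.40-fold higher in treated knockdown clones (adjusted p = 0.0104, limma). IFIT2 gave 1.48 (adjusted p = 0.0262) and IFI6 1.10 (adjusted p = 0.0342), and the gene called lower was IFIH1, a sensor of double-stranded RNA (-1.05, adjusted p = 0.0177, limma). The list median was 0.58, against -0.02 over all probes, and 13 of the 14 were above 0. OAS3 was the only gene of these lists called between clone types. It was at least 4.98-fold lower in mock knockdown clones, in which it was not well above background (adjusted p = 0.0466), and differed by -3.06 after treatment (adjusted p = 0.0443, limma), with 2 of 3 treated knockdown arrays well above background.

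**Figure D4:**
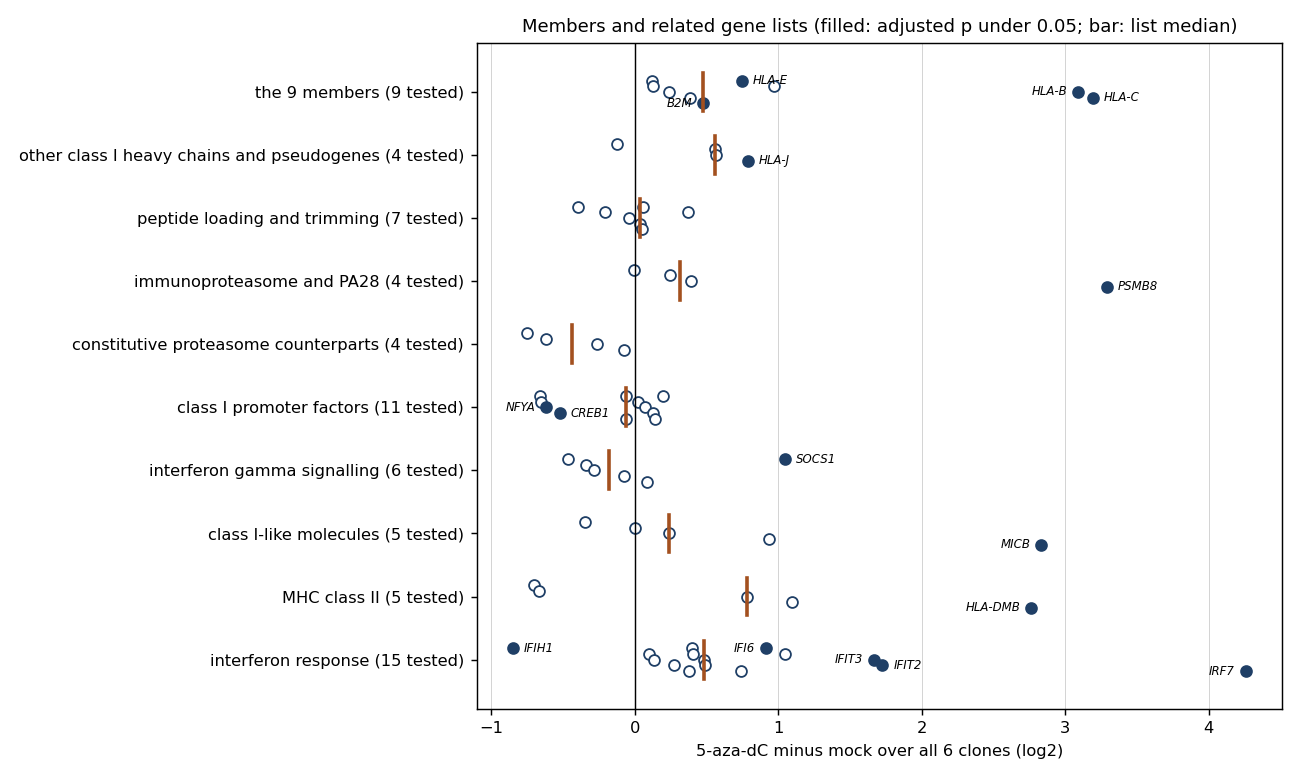
Difference in log2 signal between 5-aza-dC and mock over all 6 clones for the 9 genes and for each list of related genes, 1 brightest probe per gene. Filled and named points have an adjusted p under 0.05 by limma, and the vertical bars are list medians. PSMB8 and IRF7 were not well above background on mock arrays and HLA-DMB was so in no mock control clone, so their positions are fitted values and no measured fold. With genes not well above background in a group set to their bound, the class II median of 0.78 was 0.27.

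Some markers of other cell types moved with the drug as well, in both directions. Of 5 leukocyte markers tested over all clones, 3 had a difference above 0 and 2 were called higher, CD68 (1.53) among them. PTPRC and CD14 were well above background on all 12 arrays. The summed leukocyte signal (log2 of the sum) was 1.41 to 2.52 in mock and 2.68 to 3.42 in treated control clones, and 0.56 to 1.21 in mock and 1.48 to 3.43 in treated knockdown clones. The summed fibroblast signal was -1.29 to 1.39 and 0.68 to 2.03 in control clones and -1.20 to 0.24 and 0.45 to 1.03 in knockdown clones. COL1A1 was called higher (1.99), and COL1A2 was well above background on no array. LUM went from a mean of -1.65 to 0.64 in control and from -3.22 to -1.125 in knockdown clones. COL3A1 went the other way, from -2.39 to -3.84 in control and from -2.15 to -2.82 in knockdown clones. Among 5 epithelial markers, 4 were tested over all clones, and EPCAM (3.76) and KRT19 were called higher. KRT19 was not well above background on any mock array and was at least 6.02-fold higher in treated control clones. KRT8 had a lower mean with drug, from 1.97 to 1.51 in control and from 1.35 to 1.08 in knockdown clones. Class I genes are expressed in these cell types too, and the part of these markers in the values above was not tested.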

How the data were processed

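RNA of 6 Colo320DM clones was hybridised to 12 one-colour Agilent arrays. The authors deposited scanner files with intensity per spot, made with Feature Extraction 10.7.3.1 and not normalized between arrays per the file headers, and a series table of the same intensity rounded (largest difference 0.497%). Control spots and spots marked as outliers (268 to 395 per array) were left out, and spots of a probe were averaged on the log2 scale and centred on the array's 75th percentile. No probe of the 9 genes lacked a value. Tested were probes with 50% or more of their spots well above background on no fewer than 3 of the arrays fitted.

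Groups were compared with limma 3.58.1 in R 4.3.3 (lmFit and eBayes, two-sided) on the arrays of the 2 groups, or on all 12 arrays for the effect over all clones and the interaction, with Benjamini-Hochberg adjustment over all probes tested and a threshold of 0.05. The procedure was tested on simulated data. The methods' t-test (GeneSpring by the authors) was an alternative. Where no array of a group was well above background, a bound is given: the brighter group's mean against, per array, the larger of the dim probe's own signal and the dimmest signal that any probe well above background had. The list medians given were the same with such genes at their bound, apart from MHC class II.

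Mock and treated arrays of the same clone type and number are the same clone per the labels, and their deviations from the group means correlated at 0.213 to 0.316 in control and 0.431 to 0.525 in knockdown clones. The plasmid of each knockdown clone is from the study's description and was not used in a test. The slide was read from the files.

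The 9 genes and the gene lists were chosen with earlier results of these data known. Named are the 9 genes by every probe, the genes of a list that were called or that belong to a list of at most 7 genes, and the 5 genes most like the mean profile. Other genes named (IRF1, RFX5, markers) were chosen after their values were seen. Gene symbols are those of the files, and promoters are from a RefSeq table that listed 7 of the 9 genes. Those of HLA-E and NLRC5 were not analysed here. Sequences were aligned with Biopython 1.88 in Python 3.11.15, and figures drawn with matplotlib 3.10.9. Values of some genes of the related lists are not reported here.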

Additional observations from a re-analysis of the deposited data

How the results depend on the processing

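Of 118 recomputed counts of called genes 108 stayed within 1.5 times the reported count, and of 1062 recomputed differences of single genes 966 kept their direction and side of the threshold, 38 lost and 21 gained a call and 37 changed sign. No difference that was called changed sign, and the largest value among the reversed ones was 0.58. The cause was not tested.

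For 5-aza-dC in control clones the count of 3 became 0 with the methods' t-test, with the slide as a block and with the replicate block and the slide together, and ranged from 0 to 6 when single arrays were left out. In knockdown clones the count of 0 became 1 with normexp and quantile normalization, 2 with all 12 arrays in 1 fit, and 0 to 2 without single arrays. Between treated clone types it ranged from 0 to 4 without single arrays. Over all clones it ranged from 3 to 5.

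With the clone as a replicate block, 3 genes were called in control clones, 0 in knockdown clones, 5 over all clones and 0 for the interaction. At the brightest probes, no call beside those of HLA-E and TAP1 changed. Among the other probes, the dimmer HLA-F probe was called over all clones (1.11, adjusted p = 0.0338). A_33_P3379947 at HLA-B was called in knockdown clones (3.04, adjusted p = 0.0493). The dim HLA-B probe A_33_P3399208 lost its call in control clones (adjusted p = 0.0623, limma). No paired analysis was possible between clone types because control and knockdown clones are different clones.

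The array median as the scale moved the median of all probes with 5-aza-dC to -0.23 in control clones, -0.35 in knockdown clones and -0.29 over all clones, and the probes called higher and lower from 948 and 338 to 889 and 1650 in control clones and from 1989 and 1623 to 1700 and 6849 over all clones. With it, in knockdown clones HLA-F gave -0.11, B2M -0.10, TAP2 -0.13 and NLRC5 -0.050, and over all clones HLA-F -0.0013, PSMB9 -0.12 and NLRC5 -0.11, and NLRC5 in control clones -0.18. NLRC5 gave -0.039 with quantile normalization and -0.11 with normexp in control clones, and -0.00064 in knockdown clones and -0.056 over all clones with normexp. With the slide as a block, TAP2 gave 0.019 between mock clone types and -0.074 with drug in knockdown clones, NLRC5 -0.19 in control clones and PSMB9 0.067 in knockdown clones, or 0.15 with the replicate block added. The interaction of HLA-F became 0.021 with normexp and 0.46 with the mean of its probes, and that of HLA-B 0.037 with the mean of its probes, 0.028 with the slide and 0.19 with the replicate block and the slide, where that of HLA-C was 0.080.

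Without single arrays, sign changes were seen between mock clone types for TAP2 (-0.45 to 0.019) and HLA-F (-0.15 to 0.0083), with drug in control clones for NLRC5 (-0.14 to 0.15), in knockdown clones for TAP2 (-0.074 to 0.32) and PSMB9 (-0.81 to 0.067), over all clones for PSMB9 (-0.061 to 0.39), and in the interaction for HLA-B (-0.65 to 0.58) and HLA-C (-0.89 to 0.27).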

Other observations

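Among class I-like molecules, MICB, a ligand of the activating receptor NKG2D, was called higher over all clones with 5-aza-dC (2.83, SE 0.81, adjusted p = 0.0444, limma). It was well above background in 1 of 3 mock control clones, in 2 of 3 mock knockdown clones and in all treated clones. MICA, FCGRT, MR1 and HFE ranged from -0.35 to 0.94 over all clones and were not called, and CD1D was well above background on no array. Of 9 MHC class II genes 5 were tested over all clones. HLA-DMB, a peptide exchange factor, was called in control clones, where it was not well above background without drug and was at least 4.10-fold higher with drug (adjusted p = 0.0441, limma). The class II transactivator CIITA, CD74 and HLA-DRA were well above background on no array.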
